A study of Mus musculus with 6 samples.

Results

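Transforming growth factor beta (TGF-beta) signalling was followed through 10 genes in tumor cells from the mammary glands of MMTV-PyVT mice. They were chosen by symbol, as 3 ligands (Tgfb1, Tgfb2, Tgfb3), 2 receptors (Tgfbr1, Tgfbr2), 3 feedback genes (Smad7, Skil, Pmepa1) and 2 targets of the related bone morphogenetic protein (BMP) branch (Id1, Id3), out of 10995 rows in the deposited table. All 10 were listed and all 10 passed the filter on low counts. The libraries were 3 labelled Nr4a1-/- and 3 labelled wild type for Nr4a1, an orphan nuclear receptor. Both groups carried the PyVT transgene, in which a mammary tumor virus promoter drives polyoma middle T antigen chiefly in mammary epithelium, on the FVB/NJ background. The mice were age matched, and neither their ages nor the deleted part of Nr4a1 is stated. No label says that replicates were different animals. The p-values therefore reflect how much these libraries varied, and that variation may be technical.

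The TGF-beta ligands are secreted in a latent complex and, once freed, bind a type II receptor that activates a type I receptor. The active pair phosphorylates SMAD proteins, which enter the nucleus and switch on, among other genes, inhibitors that shut the pathway down again. In mammary epithelium the pathway is known as a brake on growth, and in later tumors as a driver of invasion and of matrix production by fibroblasts. BMPs use related receptors and another set of SMADs, and Id genes are their best known targets.

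Libraries held 19569173 to 24188875 counts, and levels are given in CPM, counts scaled to a common library size by TMM. The label was checked first on the targeted gene. Nr4a1 was measured at 25.1, 35.5 and 37.7 CPM in knockout replicates 1, 2 and 3, against 34.5, 18.6 and 16.9 CPM in wild type replicates 1, 2 and 3, so the transcript was not lower with the knockout label, and groups are named here by their labels. Whole-gene counts do not separate out the deleted part, so this speaks to the labels only if the allele makes no RNA. Of 12 luminal epithelial markers 11 were listed, with a summed level of 3917 to 4910 CPM in the libraries labelled knockout and 6215 to 7562 CPM in those labelled wild type. Wild type replicate 1 stood apart on the first principal component, at 51.3, where the other libraries lay between -28.8 and 2.22. It is the library in which Tgfb1, Tgfb2, Tgfbr1 and Tgfbr2 were lowest and Id1 and Id3 highest.

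The comparison asked which genes differ between tumor cells of the Nr4a1-/- and wild type labels. None of the 10 members passed the edgeR quasi-likelihood test adjusted over all genes, the smallest adjusted p being 0.574. That test called 0% of all 10995 genes higher and 0% lower. At an unadjusted p under 0.05 it gave 1 member, Tgfbr1, beside 7.88% of all genes. DESeq2 called 0 members, beside 0.938% of the genes it tested, and limma-voom called 0 of all genes, with 1 member and 863 of all genes at an unadjusted p under 0.05. The groups did not overlap for 1 member, Id3, which was lower with the knockout label. Of all genes 9.05% were lower without overlap and 8.39% higher, 1918 of 10995 in either direction. Of the members 5 had a log2 fold change above 0 and 5 below, with a median of 0.031, beside 49.4% above 0 and a median of -0.0024 over all genes.

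**Figure D1:**
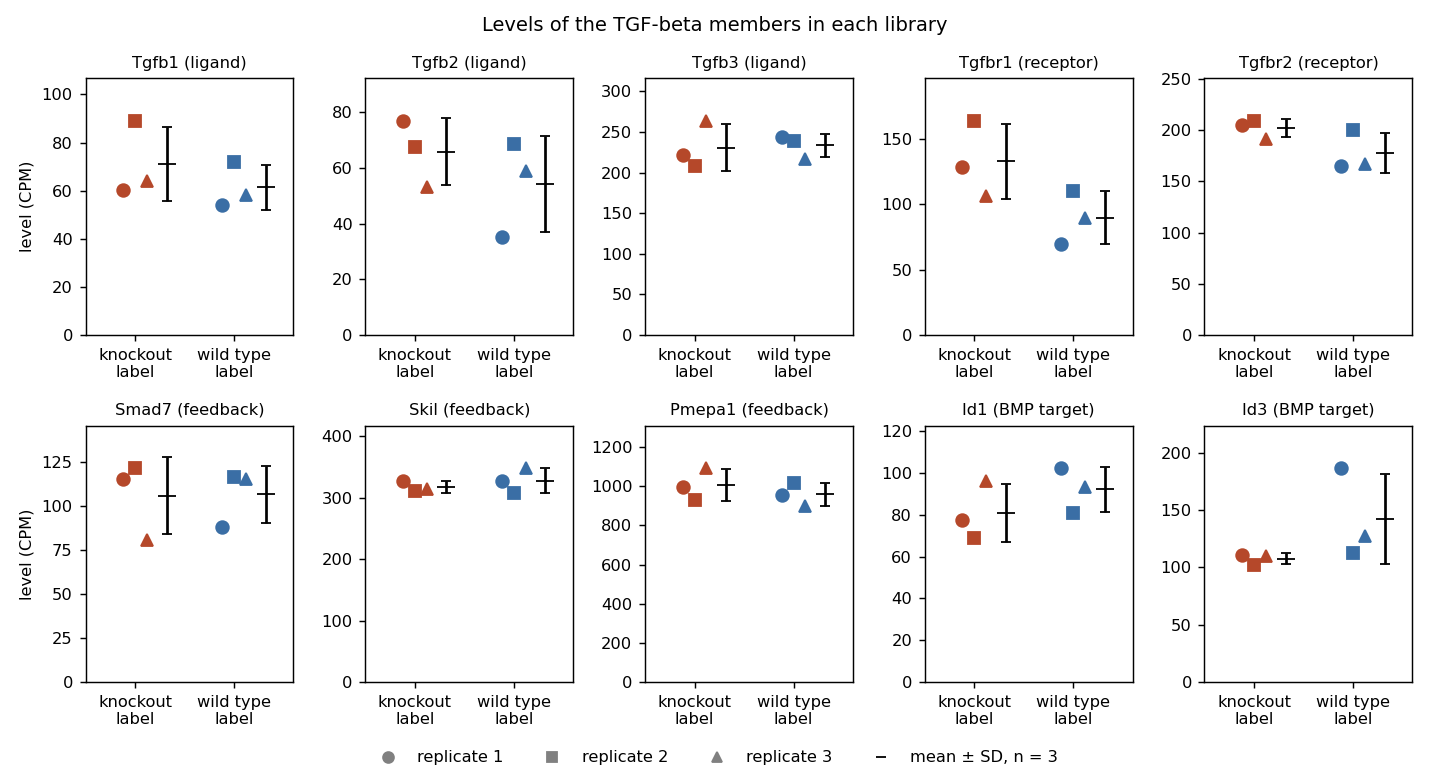
Level of each member in CPM (vertical axis, from 0) in the 3 libraries labelled knockout (left, red) and the 3 labelled wild type (right, blue), with a symbol per replicate and the mean ± SD beside the points. Id3 is the panel in which the groups do not overlap, and Tgfb2 and Tgfbr1 have the highest ratio of the highest to the lowest library, 2.19 and 2.35.

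RefSeq promoter windows were found for 5 of the 10 members, in 6 windows, since Tgfbr1 has 2 annotated starts. Those of 3 members are shown, the ligand and the receptor with the highest ratio of the highest to the lowest library and the member whose groups did not overlap. Each runs 5′ to 3′ on the gene's strand over the 250 bases before the annotated start, in the reference mouse genome GRCm38.p6, which is not of the FVB/NJ strain. Capitals mark matches on either strand. The motifs searched were CAGACA, the core of the box that SMAD proteins bind, and GGCGCC, an element of BMP-responsive promoters. The others were AAAGGTCA, the element bound by NR4A monomers, and TATAAA, the box that places the transcription start in some promoters. No matches overlapped in the windows shown.
Tgfb2, chr1:186705990-186706239, minus strand: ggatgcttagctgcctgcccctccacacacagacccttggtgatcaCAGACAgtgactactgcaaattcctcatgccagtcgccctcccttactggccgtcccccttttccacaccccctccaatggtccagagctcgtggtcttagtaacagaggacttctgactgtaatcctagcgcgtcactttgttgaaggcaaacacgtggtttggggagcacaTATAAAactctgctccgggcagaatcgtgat
Tgfbr1, chr4:47352972-47353221, plus strand: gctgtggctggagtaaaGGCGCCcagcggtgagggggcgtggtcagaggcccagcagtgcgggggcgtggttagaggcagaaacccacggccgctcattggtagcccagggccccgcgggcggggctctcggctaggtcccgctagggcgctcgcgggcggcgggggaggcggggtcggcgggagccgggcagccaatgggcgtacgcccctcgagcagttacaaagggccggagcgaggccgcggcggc
Id3, chr4:136143572-136143821, plus strand: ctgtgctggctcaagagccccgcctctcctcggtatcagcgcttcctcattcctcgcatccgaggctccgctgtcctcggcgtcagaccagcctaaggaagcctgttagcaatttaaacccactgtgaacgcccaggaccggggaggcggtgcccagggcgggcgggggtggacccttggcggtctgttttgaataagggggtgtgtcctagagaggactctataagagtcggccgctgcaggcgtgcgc

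The Tgfb2 window held a CAGACA that began 204 bases before the start and a TATAAA that began 31 bases before it. The Tgfbr1 window held a GGCGCC 233 bases before the start, and the window of its second annotated start a CAGACA at 203 bases. The Id3 window and those of Tgfb1 and Tgfbr2 held none of these letters. The Id3 window rests on the RefSeq start. It lies inside Id3 as annotated in GENCODE M21, where the gene begins at 136143497. AAAGGTCA was in 0 of the 6 windows and in 1.34% of all 32851 windows of this length. The share of all windows was 17.1% for the SMAD core, 9.59% for the BMP element and 12.4% for the TATAAA box. A match describes letters and is not a site of binding.

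Tgfb3 was by far the most abundant of the ligands per length of transcript. Divided by the length of its merged exons, Tgfb3 averaged 68.2 ± 8.54 CPM per kb with the knockout label and 69.1 ± 4.24 CPM per kb with the wild type label (SD, n = 3 each). Tgfb1 averaged 14.1 ± 3.07 CPM per kb with the knockout label and 12.2 ± 1.89 CPM per kb with the wild type label (SD, n = 3 each). Tgfb2 averaged 11.4 ± 2.07 CPM per kb with the knockout label and 9.36 ± 2.98 CPM per kb with the wild type label (SD, n = 3 each). Tgfb3 therefore made up 72.6% ± 5.19 of the summed ligand level in the libraries labelled knockout and 76.3% ± 4.29 in those labelled wild type (SD, n = 3 each). The sum itself was 93.7 ± 5.19 CPM per kb with the knockout label and 90.6 ± 5.67 CPM per kb with the wild type label (SD, n = 3 each). Neither measure differed beyond the spread between libraries (two-sided exact permutation p = 0.4 for the share and 0.5 for the log2 sum, n = 3 each, where 0.1 is the smallest p possible).

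Tgfb3 had 221, 208 and 263 CPM in knockout replicates 1, 2 and 3, against 244, 239 and 217 CPM in wild type replicates 1, 2 and 3. The groups overlapped, and the highest and lowest values both belonged to the knockout label. Knockout over wild type label, edgeR gave a log2 fold change of -0.02 with an SE of 0.11 (95% interval -0.28 to 0.25, adjusted p = 0.956). Of the 31-base words of the Tgfb3 transcript, 9.96% are found in other gene models too, here Gm48008 and Gm37804 on the opposite strand, and since the counting rule for strand is not given, that part of its reads is uncertain.

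Tgfb1, the isoform best known for restraining immune cells, had 60.5, 88.9 and 64.1 CPM in knockout replicates 1, 2 and 3, against 53.9, 72.1 and 58.0 CPM in wild type replicates 1, 2 and 3. Replicate 2 was the highest in each group, and the groups overlapped. Its log2 fold change of 0.21 had a 95% interval of -0.24 to 0.67 (SE 0.19, edgeR adjusted p = 0.657) and became 0.02 without knockout replicate 2. Of its 31-base words 4.64% are shared with other genes.

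Tgfb2 had the wider range, with 76.8, 67.6 and 53.0 CPM in knockout replicates 1, 2 and 3, against 35.0, 68.6 and 59.0 CPM in wild type replicates 1, 2 and 3. Wild type replicate 1 lay below every other library and the remaining values overlapped. For Tgfb2 edgeR gave a log2 fold change of 0.28 with an SE of 0.27 (95% interval -0.38 to 0.94, adjusted p = 0.681). It became 0.05 without wild type replicate 1 and 0.48 without wild type replicate 2. As a fold, the interval reaches from 0.766 to 1.92.

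**Figure D2:**
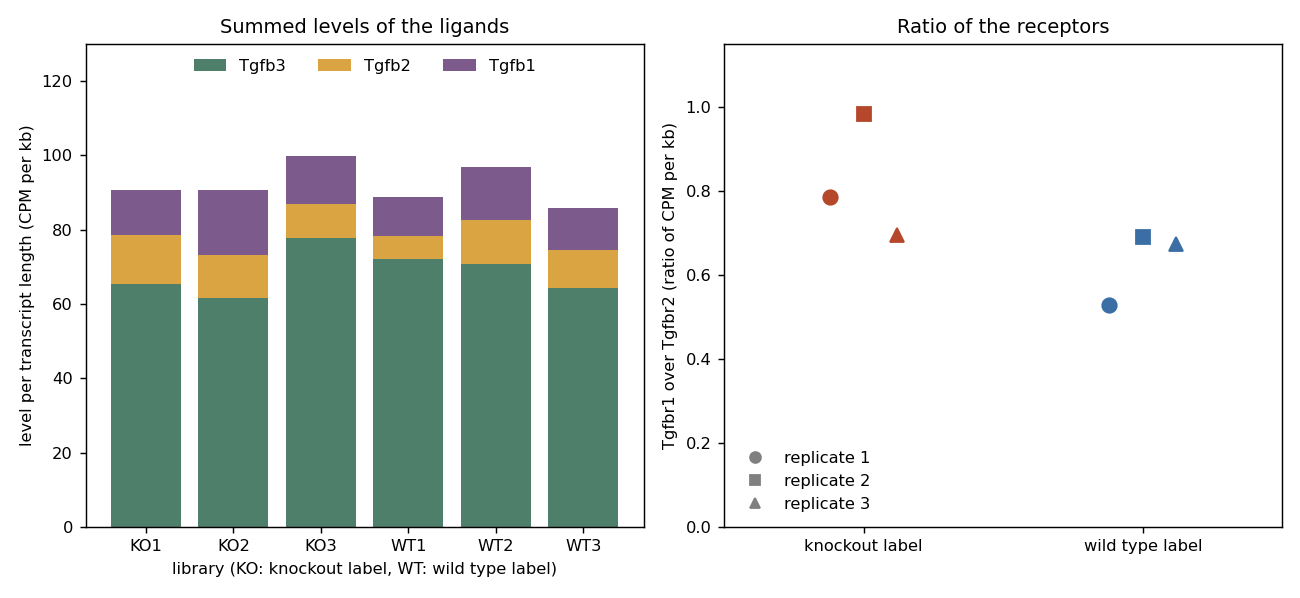
Left, the levels of the ligands per transcript length (CPM per kb) stacked for each library, with Tgfb3 as the lowest and largest block in all 6 libraries. Right, the ratio of Tgfbr1 to Tgfbr2 per length in each library, from 0.696 to 0.983 with the knockout label and from 0.527 to 0.690 with the wild type label.

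Tgfbr1, the type I receptor kinase, had the largest fold change among the members. Its level was 128, 164 and 106 CPM in knockout replicates 1, 2 and 3, against 69.5, 110 and 89.9 CPM in wild type replicates 1, 2 and 3. The groups overlapped through knockout replicate 3, which lay below wild type replicate 2. Its mean was 133 ± 28.8 CPM with the knockout label and 89.8 ± 20.3 CPM with the wild type label (SD, n = 3 each). In edgeR the log2 fold change came to 0.57 (SE 0.22, 95% interval 0.02 to 1.11, unadjusted p = 0.0439), which did not pass when adjusted over all genes (edgeR adjusted p = 0.574, DESeq2 adjusted p = 0.358). With a library left out it ran from 0.39, without knockout replicate 2, to 0.74, without wild type replicate 2.

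Tgfbr2, the type II receptor that binds the ligand first, had 205, 209 and 192 CPM in knockout replicates 1, 2 and 3, against 165, 200 and 167 CPM in wild type replicates 1, 2 and 3. Wild type replicate 2 lay within the range of the knockout label, and the other libraries labelled wild type below it. Its log2 fold change of 0.19 had a 95% interval of -0.05 to 0.42 (SE 0.10, edgeR adjusted p = 0.574). Per length, Tgfbr1 stood below Tgfbr2 in all 6 libraries. The ratio of Tgfbr1 to Tgfbr2 was 0.785, 0.983 and 0.696 in knockout replicates 1, 2 and 3, against 0.527, 0.690 and 0.675 in wild type replicates 1, 2 and 3. These ratios did not overlap, by a margin of 0.696 against 0.690 (two-sided exact permutation p = 0.1 on log2 ratios, n = 3 each, the smallest possible, and 0.4 when adjusted over the 4 level and ratio measures tested).

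Skil and Pmepa1 varied least over the libraries among the members, with the highest library 1.13 and 1.21 times the lowest, whereas the third feedback gene, Smad7, lay between 80.9 and 121 CPM. Pmepa1, a membrane protein that sequesters receptor-activated SMADs, had the highest level per length of the members, at 205 ± 16.2 CPM per kb with the knockout label and 195 ± 11.9 CPM per kb with the wild type label (SD, n = 3 each). Its level was 998, 932 and 1091 CPM in knockout replicates 1, 2 and 3, against 956, 1018 and 901 CPM in wild type replicates 1, 2 and 3. The groups overlapped, with a log2 fold change of 0.07 (SE 0.11, 95% interval -0.19 to 0.33, edgeR adjusted p = 0.794).

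Skil encodes SnoN, a corepressor that binds SMADs. It had 328, 311 and 315 CPM in knockout replicates 1, 2 and 3, against 328, 308 and 348 CPM in wild type replicates 1, 2 and 3. The highest and the lowest library, both labelled wild type, differed 1.13-fold, the narrowest range of the 10 members. At a log2 fold change of -0.05 (SE 0.08), the 95% interval of the fold, 0.850 to 1.10, bounds any difference between the labels more tightly than for any other member (edgeR adjusted p = 0.82).

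Smad7, the inhibitory SMAD that blocks and degrades the type I receptor, had 115, 121 and 80.9 CPM in knockout replicates 1, 2 and 3, against 87.9, 116 and 115 CPM in wild type replicates 1, 2 and 3. One library of each group was low, knockout replicate 3 and wild type replicate 1, and the other 4 lay close together. A log2 fold change of -0.01 with an SE of 0.19 resulted (95% interval -0.47 to 0.46, edgeR adjusted p = 0.988), which became 0.15 without knockout replicate 3. Set against its own mean over the 6 libraries, knockout replicate 3 stood at -0.38 log2 CPM for Smad7 and at -0.01 for Tgfbr1.

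**Figure D3:**
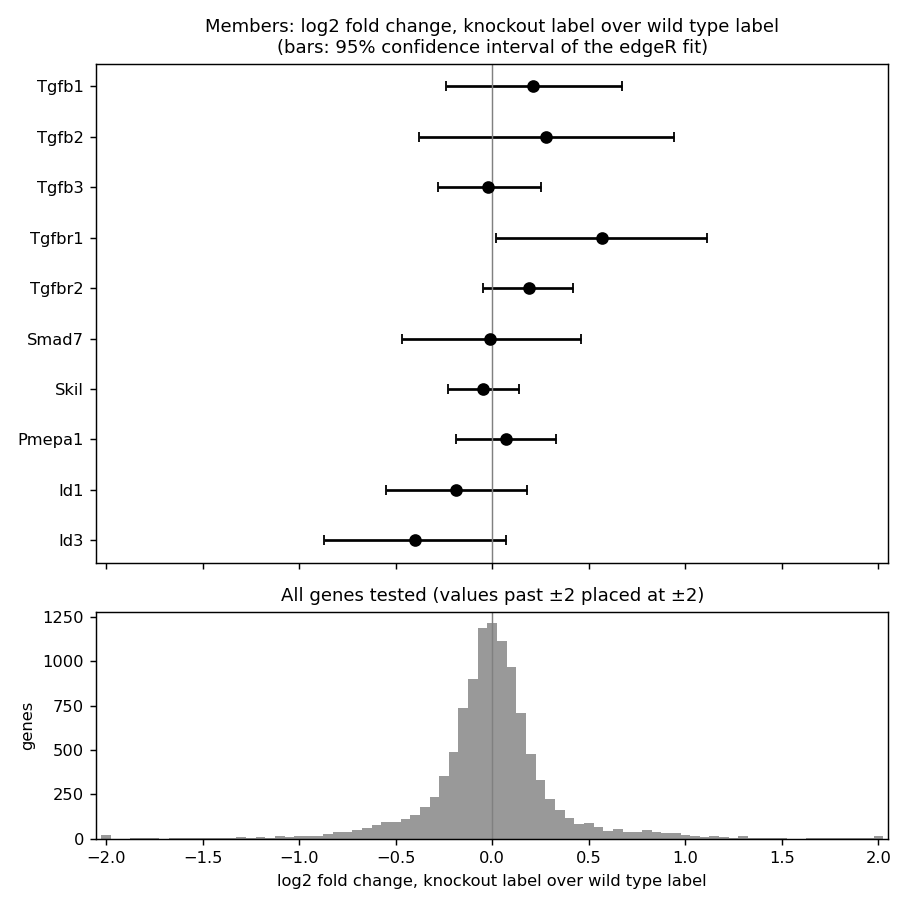
Top, log2 fold change of each member, knockout label over wild type label, with the 95% confidence interval of the edgeR fit. Bottom, the distribution of the same quantity over all 10995 genes. Tgfbr1 lies farthest right at 0.57 and Id3 farthest left at -0.40, and the interval of Skil is the narrowest.

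Id1 and Id3 encode helix-loop-helix proteins that lack a DNA-binding region and hold back differentiation factors. Id3 was the member whose groups did not overlap. It had 111, 102 and 110 CPM in knockout replicates 1, 2 and 3, against 186, 113 and 128 CPM in wild type replicates 1, 2 and 3. The libraries labelled knockout lay close together, just below wild type replicate 2, while wild type replicate 1 stood far above all others. Id3 had a log2 fold change of -0.40 (SE 0.19, 95% interval -0.87 to 0.07, edgeR adjusted p = 0.574, two-sided exact permutation p = 0.1 for n = 3 each, the smallest possible). Leaving out wild type replicate 1 gave -0.16.

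Id1 had 77.6, 68.9 and 96.1 CPM in knockout replicates 1, 2 and 3, against 102, 81.0 and 92.9 CPM in wild type replicates 1, 2 and 3. Knockout replicate 3 lay among the wild type values. Its log2 fold change of -0.19 had a 95% interval of -0.55 to 0.18 (SE 0.15, edgeR adjusted p = 0.636). The ratio of Id3 to Id1 per length was 0.875 ± 0.118 with the knockout label and 0.992 ± 0.166 with the wild type label (SD, n = 3 each), and its log2 did not differ beyond the spread (two-sided exact permutation p = 0.6).

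Per length, the members fell into tiers over the 6 libraries. Pmepa1, at 183 to 222 CPM per kb, stood alone. Id1, Id3 and Tgfb3 came next with ranges that overlapped, from 57.0 to 104 CPM per kb. Skil lay at 31.7 to 35.9 CPM per kb, above the highest library of every lower member. Smad7, Tgfbr2, Tgfbr1, Tgfb1 and Tgfb2 followed in order of their means, 23.5, 23.2, 17.1, 13.1 and 10.4 CPM per kb, and the ranges of neighbours in that order overlapped. Merged exons take in every annotated isoform, so the order rests on that choice of length.

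Markers of other cell types moved between the libraries as well. Of 13 fibroblast markers 10 were listed, summing to 4658 to 8391 CPM with the knockout label and 2404 to 5871 CPM with the wild type label. Of 10 pericyte and smooth muscle markers 8 were listed, at 917 to 2021 CPM with the knockout label and 336 to 1123 CPM with the wild type label. Both sums were highest in knockout replicate 2 and lowest in wild type replicate 1, as Tgfb1, Tgfbr1 and Tgfbr2 were. Of 14 macrophage markers 12 were listed, at 1215 to 1411 CPM with the knockout label and 845 to 1012 CPM with the wild type label. Basal and myoepithelial markers, 7 of 8 listed, summed to 2050 to 2446 CPM with the knockout label and 1111 to 2857 CPM with the wild type label. Acta2 stands in this list and in the pericyte list. Alone it had 542 to 1399 CPM with the knockout label and 154 to 785 CPM with the wild type label. Of 6 adipocyte markers 1 was listed, Fabp4, at 26.6 to 78.1 CPM with the knockout label and 2.45 to 4.27 CPM with the wild type label. The groups did not overlap for Fabp4, as for 8.39% of all genes that were higher with the knockout label. Nor did they overlap for the macrophage sum, or for the luminal sum given above, which was lower with the knockout label. Log2 fold changes lay above 0 for 10 of 10 fibroblast, 7 of 8 pericyte and smooth muscle and 11 of 12 macrophage markers. Their medians were 0.77, 1.32 and 0.82. Above 0 were 4 of 7 basal and myoepithelial and 0 of 11 luminal markers, with medians of 0.05 and -0.50. Of all genes 49.4% lay above 0. Of 6 neutrophil markers 2 were listed, S100a8 and S100a9, summing to 33.8 to 85.7 CPM with the knockout label and 24.2 to 58.3 CPM with the wild type label, and their log2 fold changes of 0.43 and -2.65 ran in opposite directions. The listed endothelial marker, Eng, was 1 of 10, and 0 of 9 T and NK cell and 0 of 4 B cell markers were in the table, where unlisted genes were not analysed here. In bulk tumor cells, fewer cells of a type and less RNA per cell cannot be told apart, and the part of these markers in the members' values was not tested.

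**Figure D4:**
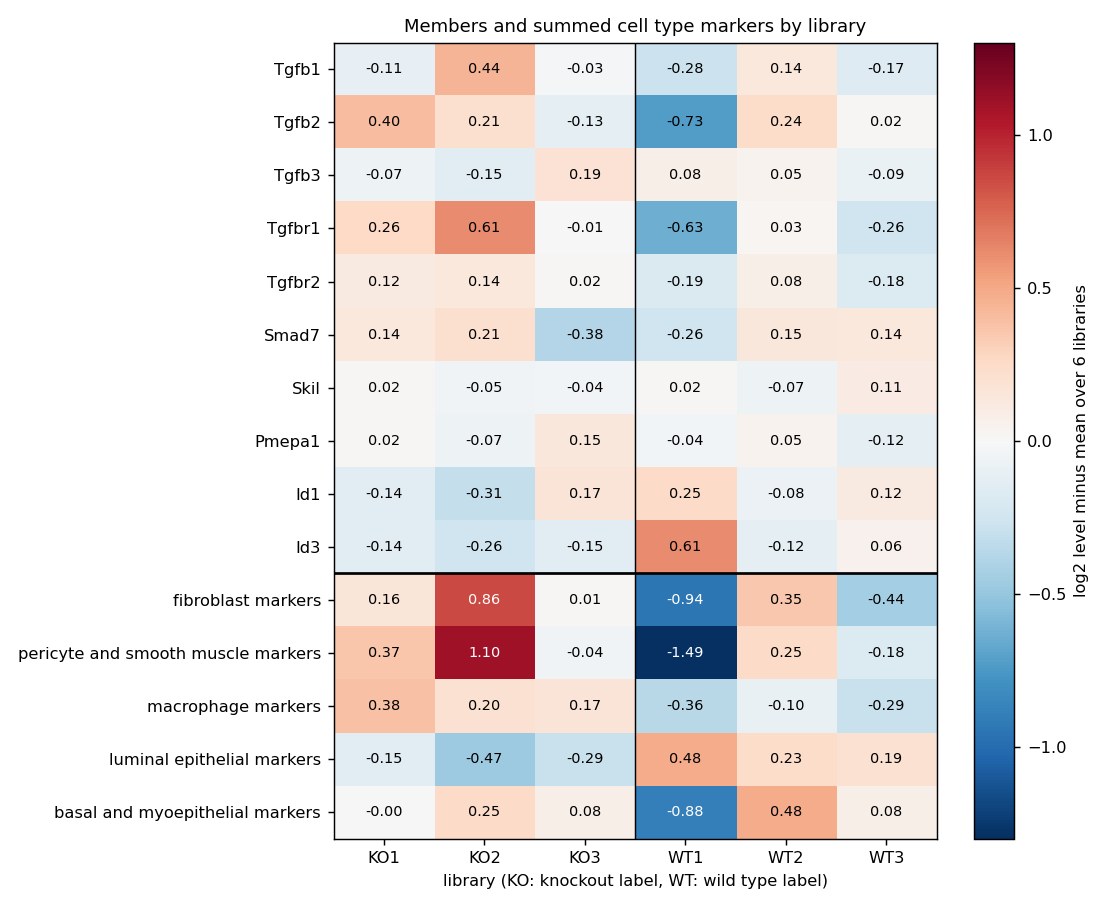
Log2 level of each member (top) and of the summed markers of each cell type (bottom) in each library, minus its mean over the 6 libraries, with the value in each cell. Wild type replicate 1 holds the lowest values of Tgfb2 and Tgfbr1 (-0.73 and -0.63) and the highest of Id3 (0.61). It also holds the lowest fibroblast, pericyte, macrophage and basal sums and the highest luminal sum.

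Genes with the most similar pattern were found by the root mean square difference of log2 CPM, each gene centred on its own mean over the 6 libraries, among 10490 named genes at or above a mean of 5 CPM. Nearest to Tgfbr1 were Creg1, at 0.0176, and Hhipl1, at 0.0498, where the median over those genes was 0.411. Nearest to Tgfb1 were Inhba, an activin subunit of the same ligand family, at 0.0593 and Snx9 at 0.0649. Nearest to Tgfb2 were Man2b1, at 0.0656, and Nuak1, at 0.0802, which is also in the target list below. Nearest to Id3 were Fn3krp, at 0.0513, and Mcm7, at 0.0525. These are a description of 6 libraries.

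The rest of the pathway was read from 6 lists of genes, of which edgeR called 0 members higher and 0 lower in each, and DESeq2 called 0. The lists share some genes, namely Smad6, Ski, Ltbp2, Itgb6 and Bmp1, so their counts are not separate. For comparison with each list, 49.4% of all genes lay above 0, with a median of -0.0024. The list of SMADs, their partners, corepressors and ubiquitin ligases had 18 of 21 listed genes below 0 and 3 above, with a median log2 fold change of -0.11. The groups did not overlap for 5 of the 21, or 23.8%, all lower with the knockout label. These 5 were Smad3, Smad5, Smurf1, Zfyve9 and Ppm1a. Of all genes 9.05% were lower without overlap and 8.39% higher, 1918 of 10995 in either direction. For each of the 5 genes, wild type replicate 1 was the highest of the 6 libraries. The other libraries labelled wild type also lay above every library labelled knockout. Smad3, a SMAD that carries the TGF-beta signal, had 117, 104 and 99.6 CPM in knockout replicates 1, 2 and 3, against 150, 120 and 143 CPM in wild type replicates 1, 2 and 3. Smad3 had a log2 fold change of -0.36 (SE 0.11, unadjusted p = 0.016, edgeR adjusted p = 0.574), and it lay between -0.45 and -0.29 with any library left out. Smurf1, a ubiquitin ligase for SMADs and receptors, had 197, 188 and 154 CPM in knockout replicates 1, 2 and 3, against 347, 200 and 225 CPM in wild type replicates 1, 2 and 3. Smurf1 came to -0.52 on the log2 scale (SE 0.23, edgeR adjusted p = 0.574), but to -0.24 without wild type replicate 1. Ppm1a, a phosphatase that acts on SMADs, had -0.15 (SE 0.07) and Tgif1, a SMAD corepressor, -0.17 (SE 0.09). Without wild type replicate 1 Ppm1a came to -0.11 and Tgif1 to -0.24. The part of that library in the median of the list was not tested.

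The list of known TGF-beta target genes had 24 of 33 listed genes above 0 and 9 below, with a median of 0.16. Of these, 4 had an unadjusted p under 0.05, namely Tgfbi, Postn and Zeb2 above 0 and Junb below, beside 7.88% of all genes. Tgfbi, a matrix protein named for its induction by TGF-beta, had 29.6, 35.7 and 19.9 CPM in knockout replicates 1, 2 and 3, against 17.5, 16.0 and 11.1 CPM in wild type replicates 1, 2 and 3. The groups did not overlap, as for 8.39% of all genes that were higher with the knockout label, and Tgfbi reached a log2 fold change of 0.94 with an SE of 0.27 (edgeR adjusted p = 0.574). Zeb2, a repressor of epithelial genes, had 41.3, 65.3 and 41.2 CPM in knockout replicates 1, 2 and 3, against 16.1, 37.5 and 22.6 CPM in wild type replicates 1, 2 and 3. The groups of Zeb2 did not overlap either. In the other direction, Cdkn2b, a cell cycle inhibitor, was lower with the knockout label, again without overlap (edgeR adjusted p = 0.574). Its level was 47.0, 51.9 and 35.1 CPM in knockout replicates 1, 2 and 3. Wild type replicates 1, 2 and 3 had 55.8, 57.4 and 54.1 CPM. In this list 2 genes, or 6.06%, were higher without overlap and 1, or 3.03%, was lower, beside 8.39% and 9.05% of all genes. Postn, periostin, had a log2 fold change of 1.12 (SE 0.37) and Junb, an immediate early transcription factor, -0.31 (SE 0.12), both with an edgeR adjusted p of 0.574. The list holds collagens and Acta2 that also stand among the fibroblast and pericyte markers above, and their part in its median was not tested.

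The genes that hold and free latent TGF-beta had 15 of 20 above 0 and a median of 0.15. Where 8.39% of all genes were higher without overlap and 9.05% lower, the groups overlapped for all 20 in this list. Those with the smallest p were Lrrc32, a cell surface anchor of latent TGF-beta, at a log2 fold change of 0.99 (SE 0.45), Fbn1, fibrillin, at 0.78 (SE 0.39), and the matrix proteoglycans Bgn and Dcn at 0.91 (SE 0.42) and 0.85 (SE 0.50), none of which passed. Without knockout replicate 2 these values were 0.51 for Lrrc32, 0.39 for Fbn1, 0.50 for Bgn and 0.48 for Dcn, which is also a fibroblast marker here and came to 0.52 without wild type replicate 3. Other receptors of the family had 7 of 10 above 0 and a median of 0.05, with Eng, a co-receptor of endothelium and stroma, at 1.06 (SE 0.58), Nrp1 at 0.76 (SE 0.51), Bmpr2, the type II receptor for BMPs, at 0.11 (SE 0.07) and Acvr1 at 0.09 (SE 0.08). Eng came to 0.54 and Nrp1 to 0.38 without knockout replicate 2, and to 0.69 and 0.44 without wild type replicate 1.

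BMP and activin ligands and antagonists had 10 of 12 above 0 and a median of 0.21. Fstl1, a secreted follistatin-like protein, had 0.88 (SE 0.36), Bmper 0.56 (SE 0.49) and Gdf11 0.22 (SE 0.10), with edgeR adjusted p between 0.574 and 0.657. Bmper came to -0.02 without knockout replicate 2, and Fstl1 to 1.33 without wild type replicate 2. Of 11 further BMP target genes 5 were listed, with a median of 0.01. Among them Id4, of the same family as Id1 and Id3, had 13.4, 9.27 and 17.3 CPM in knockout replicates 1, 2 and 3, against 8.82, 10.9 and 7.67 CPM in wild type replicates 1, 2 and 3. Its log2 fold change of 0.54 (SE 0.26, edgeR adjusted p = 0.574) was above 0, where those of Id1 and Id3 were below, and the difference was not tested. Smad6, the inhibitory SMAD of the BMP branch, had -0.28 (SE 0.19), Hey1 1.07 (SE 0.49) and Gata3, a luminal transcription factor, 0.01 (SE 0.16). Without knockout replicate 3 Id4 came to 0.31 and Hey1 to 0.68, and without wild type replicate 1 Smad6 came to -0.08.

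**Figure D5:**
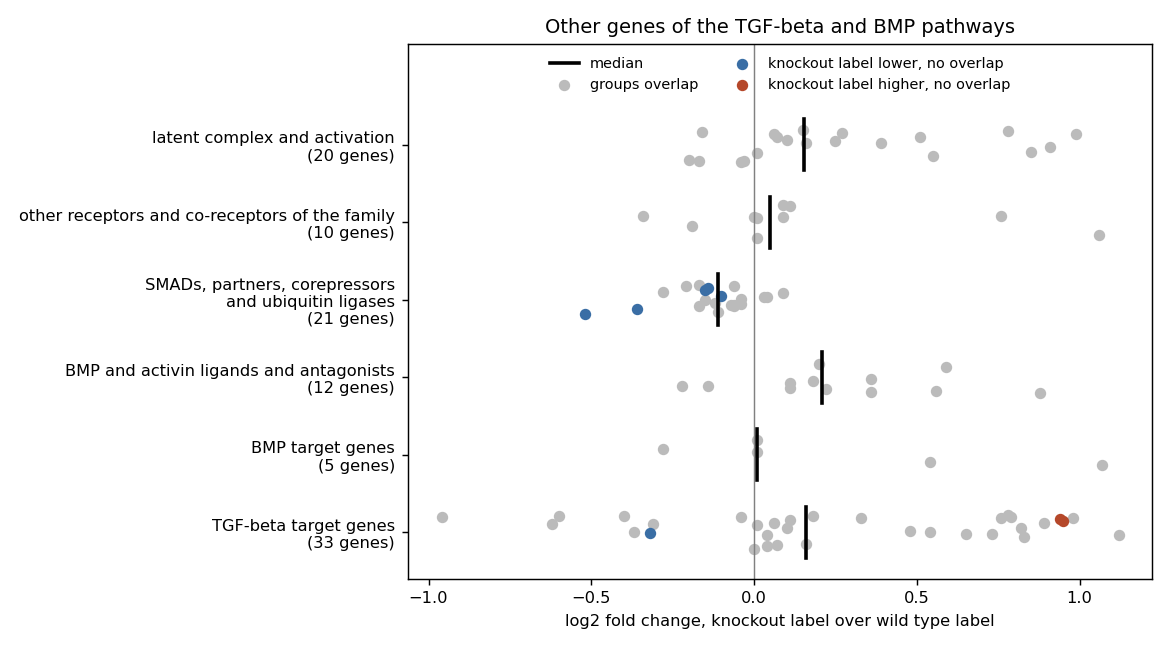
Log2 fold change, knockout label over wild type label, of each listed gene (points) in 6 lists of the TGF-beta and BMP pathways, with the median as a bar. Colored points mark genes whose groups do not overlap, 5 lower in the SMAD list, and 2 higher and 1 lower among the TGF-beta targets.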

How the data were processed

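Messenger RNA of 6 libraries of PyVT tumor cells, 3 labelled Nr4a1-/- and 3 wild type, was sequenced. The deposited table holds raw, unnormalized counts by symbol. Per the submitters' processing notes, the tools were featureCounts, HISAT2 and CASAVA 1.8, on GRCm38 (mm10). The annotation, strand handling and treatment of multiple alignments are not stated. No row has a maximum under 133 counts, so genes of low count were left out before deposit.

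The main test was that of edgeR 4.0.16 under R 4.3.3 (filterByExpr, which removed 0 genes, TMM, robust quasi-likelihood F test, Benjamini-Hochberg over all 10995 rows at 0.05). Standard errors are those implied by the F statistic. Alternatives were DESeq2 1.42.0, limma 3.58.1 voom, other scalings and filters, a replicate block and each library left out. Level sums and ratios were compared by two-sided exact permutation. Lengths come from merged exons of GENCODE M21, and 31-base words were compared with all its transcripts (Python 3.11.15). On simulated counts for 10995 genes, edgeR found 70% of the genes changed 2-fold and 95% of those changed 4-fold. False calls there were 6 in edgeR and 57 in DESeq2. No simulated library stood apart, so these figures may not hold here.

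The members and lists were chosen with earlier results of these data known. Text names all members and, from each list, genes past the threshold or, where none passed, the 4 with the smallest unadjusted p. One gene so selected is not reported here. Smad5, Zfyve9 and Cdkn2b, and the 4 level and ratio measures, were chosen after their values were seen. The labels give no batch.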

Additional observations from a re-analysis of the deposited data

How the results depend on the processing

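Of 130 recomputed member values, 13 alternatives for each of 10 genes, 120 kept the direction and 0 passed the adjusted threshold. The 10 that turned direction belonged to Tgfb3, Smad7 and Skil, whose log2 fold changes lie near 0. Tgfb3 became 0.01 with library size alone, 0.01, 0.05, 0.02 and 0.00 without knockout replicate 1, knockout replicate 2, wild type replicate 1 and wild type replicate 2. Smad7 became 0.01 with library size alone and 0.15, 0.06 and 0.06 without knockout replicate 3, wild type replicate 2 and wild type replicate 3, and Skil 0.00 without wild type replicate 3. With a library left out they ran from -0.12 to 0.05, -0.13 to 0.15 and -0.09 to 0.00. For Nr4a1 and the genes selected from the lists, 25 in all, 320 of 325 values kept their direction. The exceptions were Bmper, -0.02 without knockout replicate 2, and Gata3, -0.08, -0.01, -0.08 and -0.04 without knockout replicates 1 and 3 and wild type replicates 1 and 2. With a library left out these ran from -0.02 to 0.91 and from -0.08 to 0.16. The cause was not tested. The number of genes called was 0 to 2 with a library left out, the 2 arising without wild type replicate 2 with no member among them, and 103 in DESeq2, none a member. The members' median lay between 0.03 and 0.09 with a library left out. With a library left out, and chosen after seeing the data, the log2 ratio of Tgfbr1 to Tgfbr2 differed by 0.24 to 0.49. Whether the replicate numbers pair the libraries is not stated. Correlations of same-numbered deviations were -0.112, 0.348 and -0.255, and those of differently numbered libraries ran from -0.329 to 0.351. The replicate block called 0 genes, with 862 at an unadjusted p under 0.05 against 866 without it. Under the block the unadjusted edgeR p fell for some named genes, as for Bgn from 0.071 to 0.00186 (adjusted p = 0.45). It rose for others, as for Junb from 0.0418 to 0.102.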
